A study of Mus musculus with 5 samples.

Results

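The genes described here encode subunits of the mitochondrial oxidative phosphorylation system, chosen by symbol from a table of expression in the mouse atrioventricular canal (AVC), the segment of the embryonic heart that joins atria to ventricles and gives rise to valves. A symbol was taken when it began with Nduf followed by a, b, c, s or v and a digit, with Uqcr, with Cox and a digit from 4 to 8 or with Atp5, or when it was Sdha, Sdhb, Sdhc or Sdhd. The rule found 82 genes among the 14697 transcripts of the table, with 1 transcript each. Of these, 35 belong to complex I, 4 to complex II, 8 to complex III, 18 to complex IV and 15 to complex V. The other 2, Atp5s and Atp5sl, are matched by name but are not subunits of the ATP synthase. Ndufa4 and its paralogue Ndufa4l2 were placed with complex IV, because the protein of Ndufa4 is now counted as a subunit of cytochrome c oxidase.

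Oxidative phosphorylation makes most of the ATP of a beating heart. Complexes I and II pass electrons from NADH and from succinate to ubiquinone, complex III passes them on to cytochrome c, and complex IV passes them to oxygen. Complexes I, III and IV pump protons across the inner mitochondrial membrane, and complex V, the ATP synthase, uses their return to make ATP. Complex IV has subunits with a form found mainly in heart and skeletal muscle and a form found in most tissues, and the heart forms become more abundant as the heart matures.

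RNA was measured in AVCs of C57BL/6 mouse embryos at embryonic day 12.5. The control group, labelled WT, carried floxed Sox9 alleles (Sox9fl/fl) and no Cre. The Sox9 cKO group carried the same floxed alleles with Tie2-Cre, which recombines in endothelial cells and their descendants, much of the cushion mesenchyme included, and in blood lineages, but not in most cardiomyocytes. The dissected AVCs held mesenchyme, endothelium and myocardium, and they were pooled after genotyping and a check of the level of Sox9 deletion. The series also has 3 chromatin samples, which are not used here. Per the labels, 2 libraries were made per genotype, but the table merges them into a single value. Replicate spread cannot be seen in it, so no test was possible, and differences are described by size alone. The number of reads behind a value is also unknown.

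Values are nFPKM, that is, FPKM (fragments per kilobase of a transcript, corrected for sequencing depth) after a further normalization by the authors, so levels of different genes can be compared per length. Sox9, the targeted gene, stood at 36.7 nFPKM in WT and 14.7 nFPKM in cKO. Differences are log2 ratios of cKO to WT with a pseudocount of 1, over the 13793 transcripts that reached 1 nFPKM in WT or cKO. Their median was -0.11, and all ratios below are given relative to it ("relative log2 ratio") unless stated. This centring matters for the genes described here, because their own differences were of the same size. All 82 matched genes passed the filter. Markers of every cell type listed for the AVC were detected in both genotypes, with none at 0.

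Oxidative phosphorylation genes differed little between the genotypes. Their summed level was 39391 nFPKM in WT and 39027 nFPKM in cKO, which is 4.10% and 4.06% of all nFPKM. With the 6 globin transcripts left out of the total, these shares were 4.28% and 4.50%, since globins made up 4.24% of the WT total and 9.65% of the cKO total. On the relative log2 scale none of the 82 genes was at least 2-fold higher or 2-fold lower in cKO, against 0.834% and 0.674% of all transcripts. With shares this low, finding none among 82 genes says little about these genes in particular. A smaller size was a relative log2 ratio of at least 0.322 in either direction (at least 25% higher or 20% lower). It was passed by 8 in the higher direction, against 10.8% of all transcripts, and by 1 in the lower direction, against 9.62%. The share in the higher direction was thus close to that of all transcripts. Of the 650 transcripts with a mean of both genotypes of at least 200 nFPKM, 77 passed it in the higher direction and 25 in the lower. The remaining 73 of the 82 genes lay within this size of the all-transcript median. The middle 90% of all transcripts ran from -0.45 to 0.49, and 78 of the 82 lay inside it. Of the 650 abundant transcripts, 548 lay within the smaller size and 609 inside the middle 90%, so such a position is common at these levels.

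**Figure D1:**
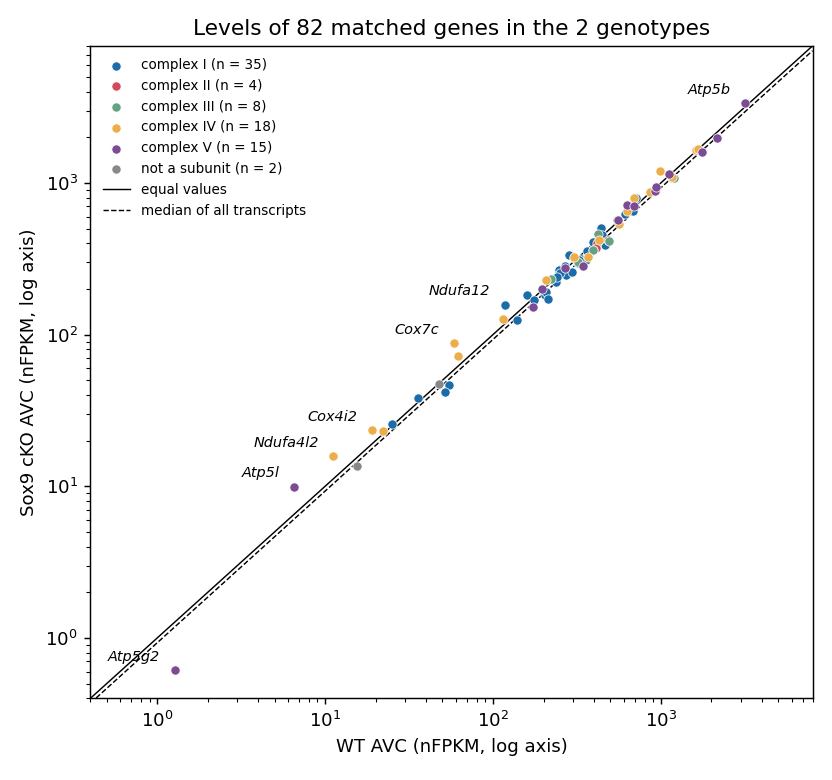
Level of each of the 82 genes in WT (x axis) and Sox9 cKO (y axis) AVC in nFPKM on log axes, 1 point per gene, coloured by complex. The solid line marks equal values and the dashed line the all-transcript median; Atp5b, at 3158 and 3347 nFPKM, is the highest point, and Atp5g2, at 1.27 and 0.62 nFPKM, is the lowest and lies well off both lines, as do Atp5l and Cox7c.

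The small difference that remained was towards higher values, and abundant transcripts of other kinds shared it. The median relative log2 ratio of the 82 genes was 0.10, with a range from -0.38 to 0.68. Of them, 55 stood above the all-transcript median, where 50% of all transcripts stand by construction, and 27 below it. Without centring the median was -0.0018 and 41 stood above 0, against 32% of all transcripts, so the direction rests on the centring. Most of these genes are highly expressed: 66 of the 82 were among the 1000 transcripts with the highest WT level, and 59 had a mean of both genotypes of at least 200 nFPKM. Among all 650 transcripts with such a mean, the median relative log2 ratio was 0.089 and 69.2% stood above the all-transcript median. Without the genes described here, the other 591 of these transcripts also had a median of 0.089. Their spread was wider, with a middle 90% from -0.28 to 0.48, against -0.15 to 0.39 for the 82 genes. The reference of at least 200 nFPKM was chosen after seeing the data.

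**Figure D2:**
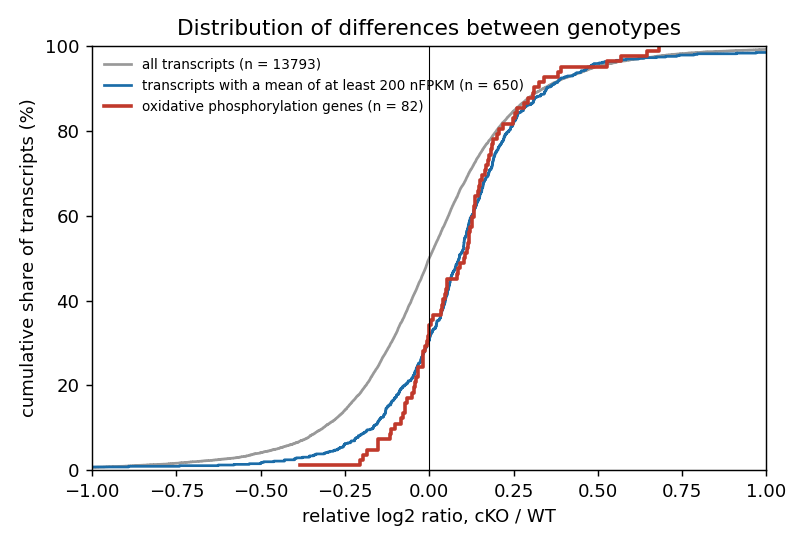
Cumulative share of transcripts (y axis, %) by relative log2 ratio of cKO to WT (x axis, cropped at -1 and 1) for all 13793 transcripts, the 650 with a mean of at least 200 nFPKM and the 82 oxidative phosphorylation genes. The curve of the 82 genes follows that of the abundant transcripts in its middle part, with medians of 0.10 and 0.089, and has a shorter lower tail.

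The dissected tissue is a mixture, and in such values fewer cells of a type and less RNA per cell cannot be told apart. The 20 cardiomyocyte markers, all detected, had a median relative log2 ratio of -0.025 with 9 above the all-transcript median, and their summed level was 60037 nFPKM in WT and 59279 nFPKM in cKO. All 8 markers of cushion mesenchyme stood below the all-transcript median, with a median of -0.76 and sums of 3199 and 2094 nFPKM. The 8 include Sox9 itself (-1.16), the targeted gene, whose lower value follows from the design. All 11 erythroid markers in the table, of 14 listed, stood above it, with a median of 1.13 and sums of 41094 and 93231 nFPKM. Epicardial markers (6 of 7 above, median 0.75, sums of 228 and 322 nFPKM) and endothelial markers (7 of 8 above, median 0.26, sums of 699 and 843 nFPKM) were also mostly higher. The part of these cell types in the values of the subunits was not tested.

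Complex I, the NADH dehydrogenase, had 23 of 35 genes above the all-transcript median and a median relative log2 ratio of 0.053. This direction rested on the reference. Without centring, 16 of 35 stood above 0 (median -0.053), where 32% of all transcripts stand. Against the median of transcripts with a mean of at least 200 nFPKM, 16 stood above (median -0.037 against it), where 50% of those transcripts stand. Its summed level was 10171 nFPKM in WT and 10048 nFPKM in cKO. The 7 nuclear genes of its catalytic core, which bind the flavin and the iron-sulfur clusters or line the way to ubiquinone, lay close together, from -0.018 for Ndufv1 to 0.21 for Ndufs3. Of these 7, 6 stood above the all-transcript median. Ndufv1, which encodes the flavin-binding subunit, stood at 321 nFPKM in WT and 294 nFPKM in cKO. The 28 accessory genes spread more widely, with 17 above the all-transcript median.

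Among accessory subunits of complex I, the highest ratio was that of Ndufa12, at 118 nFPKM in WT and 158 nFPKM in cKO, a relative log2 ratio of 0.53. Ndufa6 followed, at 285 and 336 nFPKM (0.34), and then Ndufv3, at 440 and 507 nFPKM (0.31). Ndufa12 and Ndufa6 passed the smaller size, alone in this complex. At the other end, Ndufb3 stood at 213 nFPKM in WT and 171 nFPKM in cKO (-0.21), Ndufs5 at 52.0 and 42.0 nFPKM (-0.20) and Ndufb7 at 466 and 390 nFPKM (-0.15). Ndufb3 and Ndufb7 belong to the membrane arm that pumps protons. The most abundant complex I genes in WT were Ndufa3, at 712 and 793 nFPKM (0.26), and Ndufb8, at 682 and 656 nFPKM (0.050). The X-linked subunit genes Ndufa1 (0.20), Ndufb11 (-0.0074) and, of complex IV, Cox7b (0.083) lay within the smaller size, in pools that differed in Xist, the RNA of the inactive X chromosome (175 nFPKM in WT and 71.6 nFPKM in cKO).

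Complex II, the succinate dehydrogenase shared with the citric acid cycle, had members within a narrow range. Sdha, which encodes the flavoprotein that oxidizes succinate, stood at 418 nFPKM in WT and 403 nFPKM in cKO (0.054). Sdhb, the iron-sulfur subunit, stood at 487 and 422 nFPKM (-0.10). The membrane anchors Sdhc, at 408 and 370.4 nFPKM (-0.033), and Sdhd, at 394 and 362 nFPKM (-0.019), lay between them. All 4 genes had similar levels per length in WT, from 394 to 487 nFPKM, and their median relative log2 ratio was -0.026. Their summed level was 1708 nFPKM in WT and 1558 nFPKM in cKO. None stood above 0 without centring, where 32% of all transcripts stand. None stood above the median of transcripts with a mean of at least 200 nFPKM, where 50% of those transcripts stand.

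Complex III, the cytochrome bc1 complex, also stood near the all-transcript median. Its 8 genes had a median relative log2 ratio of -0.0022, with 3 above, and their summed level was 4755 nFPKM in WT and 4490.0 nFPKM in cKO. The core proteins Uqcrc1 and Uqcrc2, which are built into the same dimeric complex, lay on opposite sides: Uqcrc1 stood at 492 and 411 nFPKM (-0.15) and Uqcrc2 at 548 and 568 nFPKM (0.16). Uqcrfs1, the Rieske iron-sulfur protein that hands electrons towards cytochrome c1, stood at 395 and 363 nFPKM (-0.013). The small subunits Uqcrq, at 424 and 459 nFPKM (0.22), and Uqcrb, at 222 and 231 nFPKM (0.16), were the highest. Uqcrh, at 1189.7 and 1081 nFPKM (-0.033), and Uqcr10, at 1163 and 1077 nFPKM (-0.0044), were the most abundant. The spread from Uqcrc1 to Uqcrq was smaller than the middle 90% of all transcripts.

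Complex IV, cytochrome c oxidase, had the highest median of the 5 complexes. Of its 18 genes 17 were above the all-transcript median and 14 above 0 without centring, where 32% of all transcripts stand. Above the median of transcripts with a mean of at least 200 nFPKM, where 50% of those transcripts stand, were 14. The median relative log2 ratio was 0.18, and the summed level was 9777 nFPKM in WT and 10098 nFPKM in cKO. The 18 include the paralogues Cox4i2, Cox6b2, Cox7a2l and Ndufa4l2, all 4 above the all-transcript median. Without them the complex IV median was 0.15, against 0.12 for complex V. Cox6a2, a heart-type subunit, was the exception below the all-transcript median. The largest ratio of all 82 genes was that of Cox7c, a small membrane subunit, at 58.3 nFPKM in WT and 87.5 nFPKM in cKO (0.68). Ndufa4, at 1169.5 and 1091 nFPKM (0.0059), and Cox6c, at 560 and 534 nFPKM (0.038), were the lowest after Cox6a2. The most abundant genes, Cox6b1 at 1658 and 1664 nFPKM (0.11) and Cox4i1 at 1621 and 1636 nFPKM (0.12), had nearly equal values in both genotypes. Whether complex IV differs from the other complexes could not be tested with 1 value per genotype.

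Complex V, the ATP synthase, held the most abundant genes of the system. Its 15 genes summed to 12917 nFPKM in WT and 12773 nFPKM in cKO, with 10 above the all-transcript median and a median relative log2 ratio of 0.12. Atp5b, the catalytic beta subunit of the F1 head, stood at 3158 nFPKM in WT and 3347 nFPKM in cKO (0.19) and was the transcript of rank 26 in WT. Its partner in the head, the alpha subunit Atp5a1, stood at 2157 and 1979 nFPKM (-0.018), and Atp5c1, the gamma subunit that turns inside the head, at 629 and 710 nFPKM (0.28). Of the 5 head genes 4 stood above the all-transcript median. In the peripheral stalk, which holds the head still, Atp5j stood at 344 and 282 nFPKM (-0.18) and Atp5h at 172 and 152 nFPKM (-0.072), while Atp5o (0.13) and Atp5f1 (0.13) stood on the other side. Atp5l, a small membrane subunit, had the highest ratio of the complex, 0.65, at only 6.53 and 9.96 nFPKM. Of the 2 matched genes that are not subunits, Atp5s stood at 15.4 and 13.6 nFPKM (-0.067) and Atp5sl at 47.9 and 47.4 nFPKM (0.090).

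**Figure D3:**
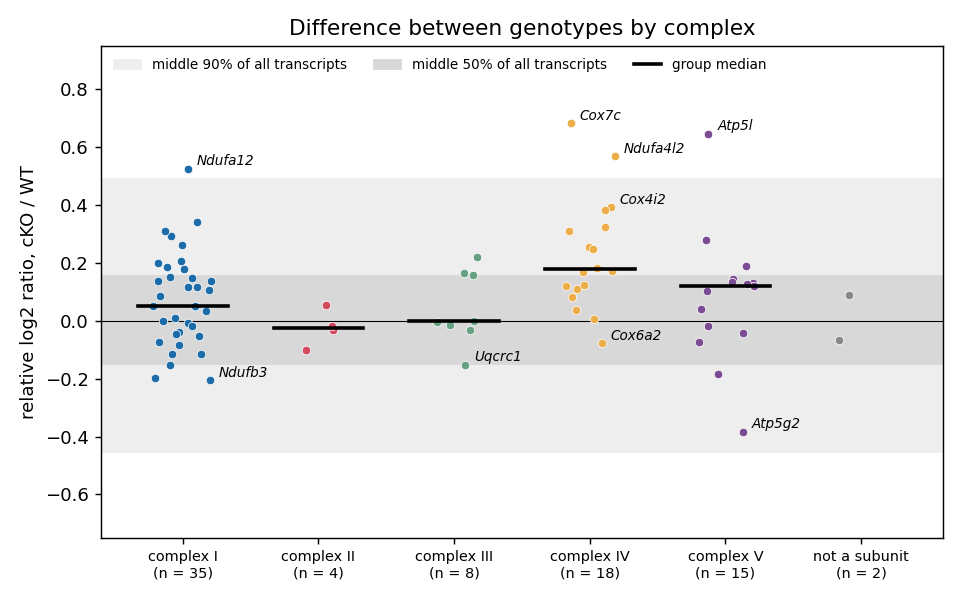
Relative log2 ratio of cKO to WT (y axis) for each of the 82 genes by complex, 1 point per gene, with the group median as a black bar and the middle 50% and 90% of all transcripts as grey bands. Complex IV has the highest median, 0.18, and complexes II and III lie near 0; 4 genes, Cox7c, Atp5l, Ndufa4l2 and Ndufa12, lie above the wider band.

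Wider differences were found among the less abundant of the genes. WT levels spanned a range of 2482-fold, from 1.27 nFPKM for Atp5g2 to 3158 nFPKM for Atp5b. Of the 9 genes past the smaller size, 6 were among the 13 with a mean under 100 nFPKM, and the median absolute relative log2 ratio was 0.21 in these 13 and 0.12 in the other 69. Atp5l, Atp5g2, Ndufb4 (25.1 and 25.9 nFPKM), Ndufs3 (35.7 and 38.3 nFPKM), Ndufs5 and Cox7c stood far below the median of the 82 genes, which was 331 nFPKM in WT. Genes of this system have many processed pseudogenes in mammalian genomes, and the sources used here do not state how reads shared with such copies were assigned, so the levels and ratios of these genes are uncertain. With the 69 more abundant genes alone, the median relative log2 ratio was 0.086 and 3 genes, Cox8a, Ndufa6 and Ndufa12, were past that size, all higher in cKO.

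Heart-type isoforms were present in both genotypes and were less abundant than the ubiquitous forms in each of the 3 pairs. Cox6a2, the heart form of subunit VIa, stood at 367 nFPKM in WT and 323 nFPKM in cKO, and the ubiquitous Cox6a1 at 694 and 799.9 nFPKM. The heart form thus made up 34.6% of the pair in WT and 28.8% in cKO, and the difference of their log2 ratios was -0.39, the largest of the 3 pairs. Cox7a1, the heart form of subunit VIIa, stood at 207 and 228 nFPKM, and the ubiquitous Cox7a2 at 865 and 877 nFPKM. Its share of the pair was 19.3% in WT and 20.7% in cKO, with a difference of log2 ratios of 0.12. Cox8b, the heart form of subunit VIII, stood at 61.9 and 72.2 nFPKM, and Cox8a at 991 and 1200.3 nFPKM. Its share was 5.88% in WT and 5.68% in cKO, with a difference of -0.057. The 3 heart forms stood on both sides of the all-transcript median: Cox6a2 was below it (-0.078) and Cox7a1 (0.25) and Cox8b (0.325) above it. The cardiomyocyte marker median was -0.025.

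Other paralogues made up a small part of their pairs. Cox4i2, an isoform of subunit IV known to respond to low oxygen, stood at 18.9 nFPKM in WT and 23.3 nFPKM in cKO (0.39), far below Cox4i1, and was 1.15% of the pair in WT and 1.41% in cKO. Ndufa4l2, a target of the hypoxia-inducible factor HIF-1, stood at 11.2 and 15.8 nFPKM (0.57), 0.947% and 1.43% of the pair with Ndufa4. Cox6b2, known from testis, stood at 22.04 and 23.1 nFPKM (0.17), 1.31% and 1.37% of the pair with Cox6b1. Cox7a2l, a relative of Cox7a2 that joins complexes III and IV in supercomplexes, stood at 306 and 323 nFPKM (0.18). The c subunit of the ATP synthase rotor is made as the same mature protein from 3 genes. Atp5g3 gave 86.7% of their summed level in WT and 85.3% in cKO (1762 and 1589 nFPKM), Atp5g1 gave 13.3% and 14.6% (270.0 and 273 nFPKM), and Atp5g2 stood at 1.27 and 0.62 nFPKM. Atp5g2 was the single gene past the smaller size in the lower direction, at a level where the pseudocount weighs on the ratio; its nFPKM in cKO was 0.485 of that in WT.

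**Figure D4:**
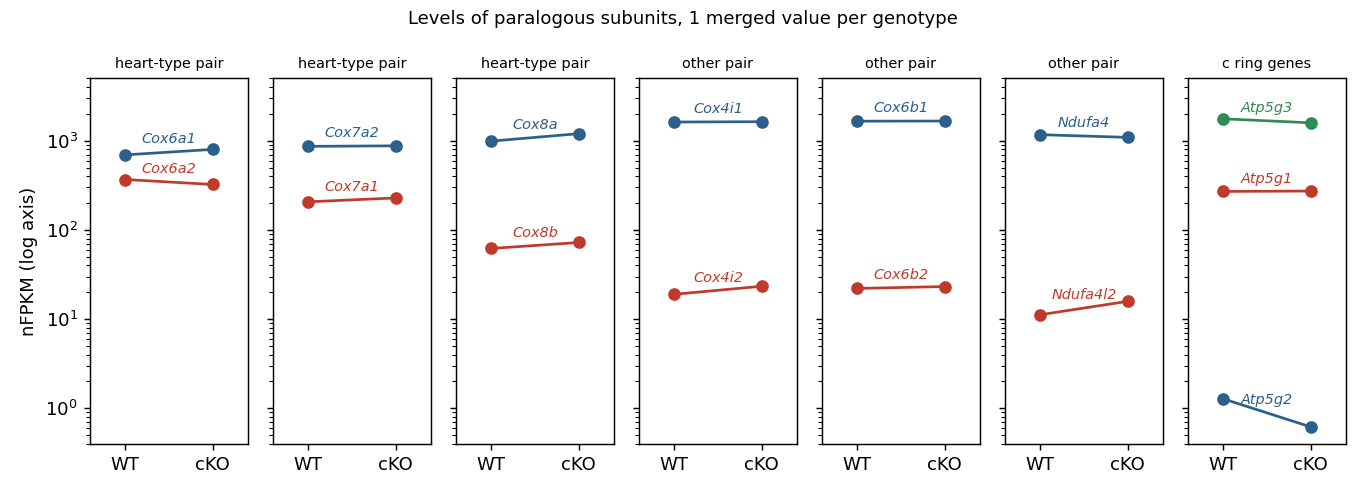
Levels in WT and cKO (nFPKM, log axis) of the 3 heart-type pairs, 3 other pairs and the 3 genes of the c subunit, 1 merged value per genotype joined by a line. In each pair the ubiquitous form is the more abundant, and the lines of Cox6a2 (367 to 323 nFPKM) and Cox6a1 (694 to 799.9 nFPKM) slope in opposite directions.

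Promoter sequences of RefSeq (build GRCm38.p6) were read for 68 of the 82 genes to describe what the genes share beyond their names. The searched stretch was the 250 bases upstream of each annotated start, on both strands, and a gene with several starts was counted once if any of its windows held the motif. The motif GCGCNTGCGC is a site of NRF1, a transcription factor known for its role in respiratory chain genes, and is palindromic only where N is A. It was found in 13 of the 68 genes (19.1%), against 8.94% of the 10834 genes with a promoter that passed the expression filter. Median GC content was 56.2% in the windows of the 68 genes and 59.6% in those of all such genes. The ETS motif CCGGAAG was found in 12 genes (17.6%, against 14.8%), ACGTG of the hypoxia response element in 16 (23.5%, against 24.9%) and the SOX core ACAAT in 16 (23.5%, against 21.2%). The MEF2 motif was found in none, against 2.09%. Over all 32851 promoter windows of the table, irrespective of expression, the shares of windows were 3.74% for NRF1, 6.91% for ETS, 16.6% for ACGTG, 27.7% for ACAAT and 2.92% for MEF2. No match of one motif overlapped a match of another in the members' windows. A match describes letters only and is not a bound site.

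The following windows, written 5′ to 3′ on the strand of the gene, are shown because they hold the NRF1 motif in the most abundant gene with one in each complex. None was found in complex III, where windows were read for 5 of its 8 genes. Capitals mark all motif matches. That of Ndufa5 (chr6:24527691-24527940, minus strand), the more upstream of 2 annotated starts, holds GCGCAGGCGC, which is the NRF1 motif on the other strand. That of Sdha (chr13:74350241-74350490, minus strand) holds 3 NRF1 matches, all on the other strand, and 1 ACGTG. That of Cox6a1 (chr5:115348959-115349208, minus strand) holds 2 NRF1 matches, GCGCATGCGC and, on the other strand, the match written GCGCAGGCGC. Near the start it holds the ETS motif on the other strand. That of Atp5k (chr5:108434400-108434649, minus strand) holds the form GCGCATGCGC, which reads the same on both strands.
Ndufa5: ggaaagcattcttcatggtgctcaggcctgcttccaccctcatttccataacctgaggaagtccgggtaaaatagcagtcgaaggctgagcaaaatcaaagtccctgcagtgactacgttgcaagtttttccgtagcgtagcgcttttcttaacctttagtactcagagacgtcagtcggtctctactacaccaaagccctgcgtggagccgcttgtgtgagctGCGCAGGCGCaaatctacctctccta
Sdha: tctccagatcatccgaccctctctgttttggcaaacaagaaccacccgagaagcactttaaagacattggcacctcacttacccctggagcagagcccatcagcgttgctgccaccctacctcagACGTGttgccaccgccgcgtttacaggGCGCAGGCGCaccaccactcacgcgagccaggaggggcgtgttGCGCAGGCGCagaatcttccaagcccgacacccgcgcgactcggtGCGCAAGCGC
Cox6a1: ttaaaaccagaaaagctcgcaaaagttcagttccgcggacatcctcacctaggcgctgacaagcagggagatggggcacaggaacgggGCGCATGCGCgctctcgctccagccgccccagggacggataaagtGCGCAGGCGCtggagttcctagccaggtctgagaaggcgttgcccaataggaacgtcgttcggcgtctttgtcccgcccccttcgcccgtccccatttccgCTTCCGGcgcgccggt
Atp5k: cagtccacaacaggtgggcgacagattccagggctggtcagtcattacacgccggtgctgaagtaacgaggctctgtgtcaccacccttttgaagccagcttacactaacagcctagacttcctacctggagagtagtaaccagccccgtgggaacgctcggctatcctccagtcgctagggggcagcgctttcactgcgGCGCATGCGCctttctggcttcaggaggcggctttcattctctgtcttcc

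The 13 genes with the motif had relative log2 ratios on both sides of the all-transcript median, from -0.38 for Atp5g2 to 0.31 for Cox6a1. Ndufa5 stood at 336 nFPKM in WT and 313 nFPKM in cKO (0.00042) and Atp5k, which encodes subunit e of the ATP synthase, at 938 and 935 nFPKM (0.10). To set a heart-type promoter beside its ubiquitous counterpart, the windows of Cox7a1 (chr7:30183921-30184170, plus strand) and Cox7a2 (chr9:79759854-79760103, minus strand) are shown. Cox7a1 holds none of the 5 motifs in this window and Cox7a2 holds 3 matches of the SOX core ACAAT or its reverse complement ATTGT. Their relative log2 ratios were 0.25 and 0.13, and a relation of motif letters to these ratios was not tested. In the other heart-type pair with both windows, not printed here, Cox8b holds 1 ACGTG and Cox8a none of the 5 motifs.
Cox7a1: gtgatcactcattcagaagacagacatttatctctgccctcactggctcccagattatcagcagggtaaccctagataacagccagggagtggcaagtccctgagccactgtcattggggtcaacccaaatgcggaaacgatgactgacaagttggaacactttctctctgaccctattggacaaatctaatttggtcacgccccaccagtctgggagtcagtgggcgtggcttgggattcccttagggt
Cox7a2: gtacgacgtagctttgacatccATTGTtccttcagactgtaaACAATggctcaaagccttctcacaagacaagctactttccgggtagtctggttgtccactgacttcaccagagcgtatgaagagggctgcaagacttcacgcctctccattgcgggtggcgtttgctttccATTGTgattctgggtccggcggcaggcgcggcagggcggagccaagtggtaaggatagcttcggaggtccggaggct

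Genes that work beside the respiratory chain divided into lists near the all-transcript median and 1 list slightly above it. The 18 genes of the citric acid cycle and pyruvate dehydrogenase had a median relative log2 ratio of 0.17, with none past the smaller size. Of them 17 stood above the all-transcript median, and 11 above 0 without centring, where 32% of all transcripts stand. Their median WT level was 235 nFPKM, and 69.2% of transcripts with a mean of at least 200 nFPKM stood above the all-transcript median. Above the median of those abundant transcripts, where 50% of them stand, were 13 of the 18. Cs, citrate synthase, stood highest at 503 nFPKM in WT and 584 nFPKM in cKO (0.321, just under the smaller size). Pdhb of pyruvate dehydrogenase followed at 151 and 162 nFPKM (0.21). Sucla2 (-0.038) and Suclg1 (0.020), subunits of succinyl-CoA ligase, stood lowest. The 5 electron carrier genes had a median of 0.059: Cycs, cytochrome c, stood at 11.7 and 12.1 nFPKM (0.15), Etfdh at 137 and 134 nFPKM (0.072), Cyc1 of complex III, whose symbol the rule does not match, at 447 and 421 nFPKM (0.018) and Etfb at 321 and 251 nFPKM (-0.25).

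The 32 assembly factors in the table, of 42 listed symbols, had a median of 0.014 with 17 above the all-transcript median. Sco2, a copper chaperone for complex IV, stood at 5.97 and 9.31 nFPKM (0.67), and Lyrm7 of complex III assembly at 6.51 and 7.54 nFPKM (0.29). Cox19, another factor of complex IV assembly, stood lowest at 65.9 and 40.0 nFPKM (-0.60), followed by Sco1 at 19.9 and 15.8 nFPKM (-0.21). The paired copper chaperones Sco1 and Sco2 thus stood at opposite ends of the list. The 72 genes of the mitochondrial ribosome, which translates the subunits encoded by mitochondrial DNA, had a median of 0.022 with 38 above. Mrps36, which has since been counted with alpha-ketoglutarate dehydrogenase (1.73 and 3.46 nFPKM, 0.82), and Mrpl52 (0.35) were the highest of them, and Mrpl41 (28.4 and 17.8 nFPKM, -0.54) and Mrpl22 (-0.39) the lowest. None of the 13 listed symbols of genes on mitochondrial DNA itself was found among the transcripts with values, so the subunits encoded there are not analysed here.

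Regulators of mitochondrial biogenesis had a median of -0.027 over 14 genes, with 6 above the all-transcript median and wide ends. Ppargc1a, which encodes the coactivator PGC-1alpha that drives respiratory chain genes in the heart, stood at 51.7 nFPKM in WT and 75.2 nFPKM in cKO (0.64). Polg2, the accessory subunit of the mitochondrial DNA polymerase, stood at 5.68 and 8.90 nFPKM (0.67). Tfb2m, at 10.8 and 7.19 nFPKM (-0.42), and Polrmt, at 21.4 and 14.8 nFPKM (-0.40), which together start transcription of mitochondrial DNA, were the lowest. In the same values 10 genes of the hypoxia response, all above the all-transcript median, had a median of 1.02 and summed to 787 nFPKM in WT and 1262 nFPKM in cKO. Among them Pdk1, a kinase that restrains the entry of pyruvate into the citric acid cycle, stood at 135 and 150.3 nFPKM (0.26), and Bnip3, a factor of mitochondrial turnover, at 110.2 and 203 nFPKM (0.98). Pdk1 and Bnip3 were singled out after their values were seen.

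**Figure D5:**
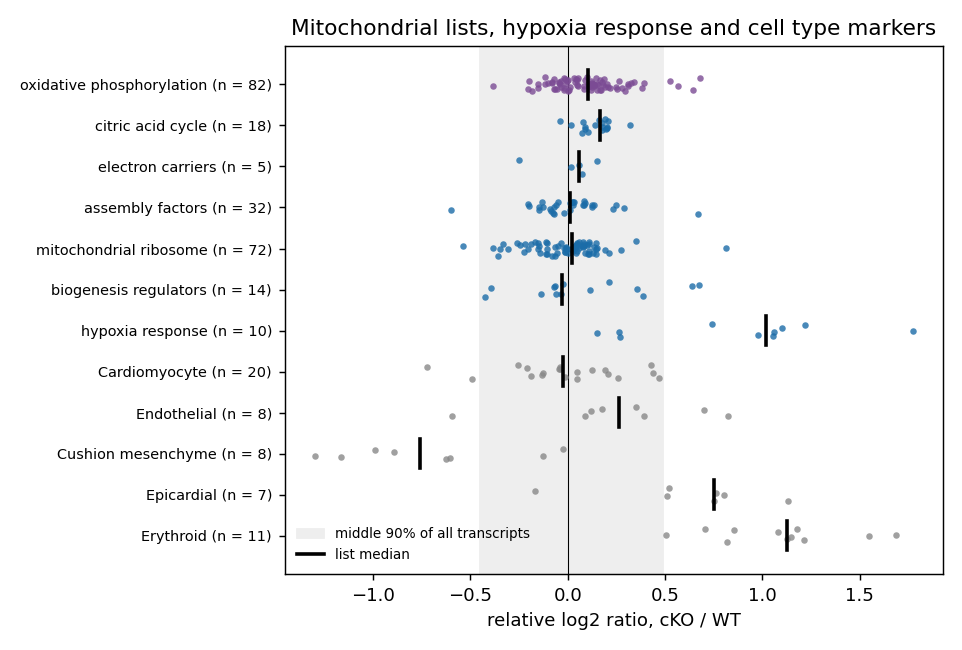
Relative log2 ratio of cKO to WT (x axis) of each gene in the oxidative phosphorylation set, other mitochondrial lists, the hypoxia response and cell type marker lists, with the list median as a black bar and the middle 90% of all transcripts in grey. The mitochondrial list medians lie between -0.027 and 0.17, while that of the hypoxia response is 1.02 and that of the erythroid markers 1.13.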

How the data were processed

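RNA-seq of AVCs gave FPKM values that the authors normalized further (nFPKM) and merged over duplicate libraries into 1 value per genotype, per the file headers; how they normalized is not given in the sources. TopHat2, Cufflinks, edgeR and build mm9 are named in the submitters' processing notes, without versions or roles. The authors' log2 fold change, deposited beside the values without a p-value, served only as an alternative. WT values summed to 961487 nFPKM and cKO values to 960481 nFPKM. The merged values do not allow counts to be recovered, so precision is unknown.

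Ratios were log2((cKO + 1)/(WT + 1)) for transcripts that reached 1 nFPKM in WT or cKO (904 removed, 13793 kept), minus their median. Steps were tested on simulated data with planted changes larger than 2-fold, outside the lowest transcripts. That check does not cover differences as small as those described here. Sizes of 2-fold, and of at least 25% higher or 20% lower, described differences; both are on the scale with the pseudocount, which understates differences of low genes. Named were all complex II genes, paralogues, the 3 highest and 3 lowest ratios and the 2 most abundant genes per complex, and, in the 5 mitochondrial comparison lists, the 2 highest and 2 lowest genes with at least 3 nFPKM; hypoxia and cell type lists were given as summaries. One gene's own values are not reported here. Other genes named were chosen after their values were seen. The members and lists were chosen with earlier results of these data known. Alternatives were pseudocounts of 0.1 and 5, other filters, other centring, the authors' fold change and other gene sets. All 82 transcripts matched a RefSeq accession. Chromatin peaks were not used. Python 3.11.15, numpy 2.4.6, pandas 2.3.3 and matplotlib 3.10.9 were used.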

Additional observations from a re-analysis of the deposited data

How the results depend on the processing

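Of 132 values recomputed under alternatives, 121 moved by less than 0.1 (log2) or, for counts, by at most 1.5 times. That tolerance is about as large as the median of the 82 genes itself (0.10), so a value within it can still lose or change its direction. Some of the 132 values cannot move by construction, since centring cancels out of the differences between paired isoforms. Without centring, the median of the 82 genes was -0.0018, 41 stood below 0 and 4 were at least 25% higher, and the medians of complexes I to V were -0.053, -0.13, -0.11, 0.073 and 0.014; this alternative subtracts no reference, which by its construction moves every ratio by the all-transcript median of -0.11. Against transcripts with a mean of at least 200 nFPKM, an alternative chosen after seeing the data, the median of the 82 genes was 0.015. Under it 4 genes were at least 25% higher, and the medians of complexes I to V were -0.037, -0.12, -0.092, 0.089 and 0.031. With a pseudocount of 5, and with a filter of at least 3 nFPKM, 0 genes were at least 20% lower, since Atp5g2 was damped or left out. Over all alternatives the median of the 82 genes ran from -0.0018 to 0.11. None of the 82 genes was 2-fold higher or lower under any alternative with a value for it. Counting every row changed nothing, since each gene has 1 row. Leaving out replicates could not be done, since each genotype has 1 merged value. No paired analysis was possible because each genotype has 1 merged value and no test was made. The unknown depth limits the genes of low level most.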
